A study of Caenorhabditis elegans with 2 samples.

Results

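The heat shock and DnaJ chaperone genes of Caenorhabditis elegans were taken as every protein-coding gene of the Ensembl release 115 annotation of WBcel235 (the ce11 build) whose name is hsp- or dnj- followed by a number. The annotation held 51 such genes among 19973 protein-coding genes, of which 22 were hsp genes and 29 were dnj genes. There were 5 of them on X and 46 on the autosomes. The rule is by gene name.

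Binding of SDC-2 at these genes was read from chromatin immunoprecipitation sequencing (ChIP-seq), in which sheared chromatin is pulled down with an antibody and the recovered DNA is sequenced. There was 1 group with 2 biological replicates: hermaphrodite late embryos of strain OP92, collected 3.25 h after synchronization by bleaching and precipitated with anti-GFP, so no comparison of conditions was possible. Both replicates carry the same transgene, which encodes SDC-2 fused at its C-terminal end to GFP-FLAG, and both come from 1 line and from whole animals, so the lists cannot assign a peak to a cell type. The worms were not labelled as heat-shocked or otherwise stressed, and neither RNA levels nor worms without the tag were analysed here.

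Heat shock proteins of the HSP70, HSP90, HSP60 and small HSP families bind unfolded proteins, and DnaJ proteins deliver clients to HSP70 and stimulate its ATPase. Some are made in every growing cell, whereas others, such as the hsp-16 genes and hsp-70, are nearly silent until heat or another stress activates the transcription factor HSF-1, which binds heat shock elements made of alternating GAA and TTC units. SDC-2 is known for directing the condensin-like dosage compensation complex to X in hermaphrodites, where transcription is then reduced.

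An SDC-2 summit, the base at which a peak is highest, lay within 1000 bp of an annotated 5′ end for 11 of the 51 genes in the authors' list of reproducible peaks (21.6%, exact 95% interval 11.3 to 35.3%). That list keeps peaks that pass a threshold of irreproducible discovery rate (IDR) and held 1343 peaks on the nuclear chromosomes. Among all protein-coding genes the share was 4.64%. All 11 peaks had the same signal and rank in the authors' list from the pooled replicates (the pooled list). The 1343 strongest pooled peaks gave the same counts, 11 chaperone genes and 926 of all genes. Pooled ranks are therefore not separate support, and a peak in the IDR list need not rank high in each replicate. Among the heat shock genes, the IDR summits lay mostly at those listed as constitutive. This list and that of the stress-inducible genes were set by hand, with earlier results of these data known, so the intervals are not a test. Constitutive here means made without stress, and of these genes hsp-6 and hsp-60 rise further under mitochondrial stress. Whether the others also rise under stress was not examined, so the lists need not be exclusive. The promoters of hsp-1, hsp-90 and hsp-110 held letters of heat shock elements, as given below. Of 7 constitutive heat shock genes, 5 had an IDR summit (71.4%, interval 29.0 to 96.3%): hsp-1, hsp-3, hsp-60, hsp-90 and hsp-110. Of 8 stress-inducible genes, 0 had one. Since 6 of these are hsp-16 genes that share promoters as 3 divergent pairs, they make at most 5 separate promoters, and 0 of 5 allows a share of up to 52.2% (0 of 8 would allow 36.9%). Both ranges contain the 4.64% of all genes, so the count of 0 does not set these genes below other genes. Of the remaining small HSP genes, 1 of 7 had one (hsp-12.3), and of the DnaJ genes 5 of 29 (17.2%, interval 5.85 to 35.8%): dnj-9, dnj-13, dnj-14, dnj-19 and dnj-29. The intervals of the constitutive genes and of the 5 stress-inducible promoters overlap between 29.0 and 52.2%, and they cover counting error only. When each IDR summit was given to its nearest protein-coding 5′ end alone, 6 of the 51 genes kept one (11.8%, interval 4.44 to 23.9%), against 3.73% of all genes. Of the 7 constitutive genes 2 did, hsp-1 and hsp-3, with an interval of 3.67 to 71.0% that contains the share of all genes.

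**Figure D1:**
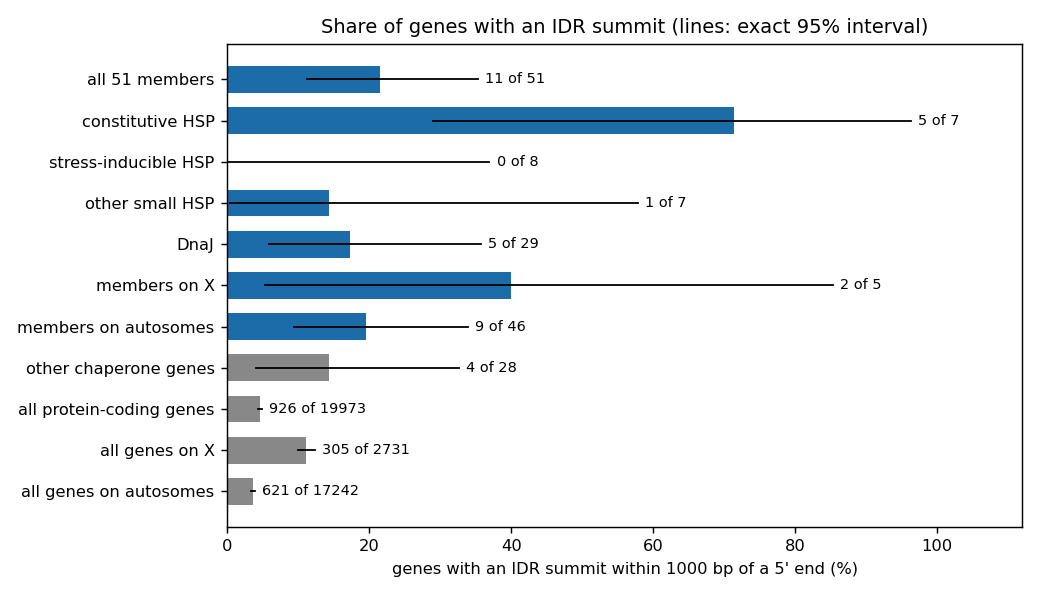
Share of genes with an IDR summit within 1000 bp of an annotated 5′ end, in percent, as bars for each group of chaperone genes (blue) and for comparison groups (grey); black lines are exact 95% intervals and the numbers beside them give genes with a summit of genes in the group. The constitutive group stands at 71.4%, the stress-inducible group at 0 (drawn for 8 genes, which share promoters), and all protein-coding genes at 4.64%.

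The DNA under the summits is shown for 7 of the 11 peaks, chosen because they carry the constitutive genes, the X genes and the cytosolic DnaJ gene dnj-13, and for the weak pooled peak between hsp-16.2 and hsp-16.41, the stress-inducible pair with a summit between its 5′ ends. Each runs 5′ to 3′ on the strand of the gene, from the WBcel235 genome of RefSeq, with the summit at base 101, and stops before any protein-coding exon. Capitals mark matches, on either strand, to a pair of heat shock units (GAANNTTC or TTCNNGAA, each of which is its own reverse complement), to AGACGCAG (CTGCGTCT on the other strand) and to GAGAGAGA (TCTCTCTC on the other strand). The coordinates, which follow each name in the next sentence, count from 1. The stretches are chrX:6092125-6092236 (minus strand) for hsp-3, chrX:4711900-4712100 (minus) for dnj-14, chrIII:1618987-1619187 (plus) for hsp-60, chrV:14685689-14685889 (plus) for hsp-90, chrIV:17278501-17278701 (plus) for hsp-1, chrII:11545391-11545591 (plus) for dnj-13, chrIII:8447053-8447253 (minus) for hsp-110 and chrV:1804990-1805177 (plus) for hsp-16.41.
hsp-3: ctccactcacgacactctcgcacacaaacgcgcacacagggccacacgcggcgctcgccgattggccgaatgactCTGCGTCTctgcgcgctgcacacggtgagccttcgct
dnj-14: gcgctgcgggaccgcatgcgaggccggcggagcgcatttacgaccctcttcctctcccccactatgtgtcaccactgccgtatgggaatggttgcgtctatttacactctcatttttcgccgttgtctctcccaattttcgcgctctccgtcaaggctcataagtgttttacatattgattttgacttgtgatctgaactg
hsp-60: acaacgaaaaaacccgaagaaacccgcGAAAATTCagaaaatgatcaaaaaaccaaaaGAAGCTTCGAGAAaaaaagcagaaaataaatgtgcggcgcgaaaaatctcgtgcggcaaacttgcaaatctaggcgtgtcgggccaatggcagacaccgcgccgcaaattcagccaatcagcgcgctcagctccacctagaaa
hsp-90: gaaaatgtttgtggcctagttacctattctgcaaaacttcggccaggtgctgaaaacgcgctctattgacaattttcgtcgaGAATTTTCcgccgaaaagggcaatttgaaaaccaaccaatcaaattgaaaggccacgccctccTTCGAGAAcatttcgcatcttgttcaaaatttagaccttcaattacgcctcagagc
hsp-1: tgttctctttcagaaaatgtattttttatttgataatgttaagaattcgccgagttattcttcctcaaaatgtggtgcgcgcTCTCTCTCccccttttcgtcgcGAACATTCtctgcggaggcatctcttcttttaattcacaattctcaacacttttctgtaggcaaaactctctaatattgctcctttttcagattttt
dnj-13: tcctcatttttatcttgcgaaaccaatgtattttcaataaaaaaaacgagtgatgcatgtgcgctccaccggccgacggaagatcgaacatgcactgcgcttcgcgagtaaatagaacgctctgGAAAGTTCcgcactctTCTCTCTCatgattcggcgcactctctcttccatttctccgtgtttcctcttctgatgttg
hsp-110: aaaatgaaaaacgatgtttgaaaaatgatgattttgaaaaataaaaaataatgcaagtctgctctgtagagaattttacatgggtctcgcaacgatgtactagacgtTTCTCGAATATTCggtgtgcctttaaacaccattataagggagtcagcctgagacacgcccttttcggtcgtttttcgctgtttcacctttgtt
hsp-16.41: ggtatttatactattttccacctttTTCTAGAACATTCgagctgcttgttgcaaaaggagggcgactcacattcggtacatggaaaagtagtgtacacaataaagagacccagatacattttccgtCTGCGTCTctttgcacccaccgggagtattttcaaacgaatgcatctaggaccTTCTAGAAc
The hsp-60 stretch held 3 matches to the pair of heat shock units, the hsp-90 and hsp-110 stretches 2 each, and those of hsp-1 and dnj-13 1 each. The hsp-3 stretch held none of these and 1 match to AGACGCAG. The dnj-14 stretch held none of the words searched, and so has no capitals. The hsp-16.41 stretch held 3 matches to the pair and 1 to AGACGCAG. The IDR peaks of dnj-9, dnj-29, hsp-12.3 and dnj-19, the last also a cytosolic DnaJ gene, are not shown. Within 100 bp of their summits, dnj-19 held 1 match to the pair and the others none of the words searched. The stretches shown are thus richer in matches than those left out.

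Among the constitutive genes, the signal was highest at hsp-3, one of the worm's BiP genes, which encodes the HSP70 of the endoplasmic reticulum (ER). The signal is the authors' value for each peak; the pooled and replicate lists are on separate scales, so they are compared here by rank, with 1 the strongest. The hsp-3 peak (chrX:6092030-6092268) had a signal of 246.1 and rank 169 in the pooled list, with 113.4 and rank 187 in replicate 1 and 141.9 and rank 145 in replicate 2. Its summit lay 12 bp upstream of the outermost of the gene's 3 annotated 5′ ends. No 5′ end of another gene lay within 1000 bp, and 4 pooled summits lay near the gene. It was the narrowest of the 11, at 239 bp, while the other 10 had the list's median width of 450 bp.

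The mitochondrial chaperonin gene hsp-60 had the next signal of its group, 159.4 (chrIII:1618862-1619311, rank 343), with 71.6 (rank 405) in replicate 1 and 84.1 (rank 367) in replicate 2. Its summit lay 655 bp upstream of hsp-60 and 158 bp from the start of the neighbouring gene Y22D7AL.10, which RefSeq describes as the mitochondrial 10 kDa heat shock protein, the partner of the chaperonin. Its replicate ranks were close to each other, and the lists do not say to which of these starts the peak belongs.

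The cytosolic HSP90 gene, hsp-90 (also known as daf-21), had a signal of 135.0 (chrV:14685564-14686013, rank 468), with 65.0 (rank 477) in replicate 1 and 65.6 (rank 579) in replicate 2. The summit lay in an intron, 371 bp upstream of the inner of the gene's 2 annotated 5′ ends and 871 bp downstream of the outer one. The start of C47E8.4, which RefSeq names as a FAM50 homologue, was closer, at 304 bp.

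The gene of the cytosolic constitutive HSP70, hsp-1, had a signal of 122.6 (chrIV:17278376-17278825, rank 549), with 51.4 (rank 780) in replicate 1 and 73.0 (rank 457) in replicate 2. The summit lay 358 bp upstream, and its nearest protein-coding 5′ end was that of hsp-1. The noncoding RNA gene F26D10.23 started closer to it, at 188 bp. The gene of the HSP70 nucleotide exchange factor, hsp-110, had the lowest signal of the 11, 83.9 (chrIII:8446928-8447377, rank 1296), with 52.3 in replicate 1 and 30.1 in replicate 2. Its ranks there were 745 and 4138, so that it was among the 1343 strongest peaks of replicate 1 and not of replicate 2. Its summit lay 244 bp upstream of hsp-110 and 200 bp from rpn-3, which encodes a subunit of the 26S proteasome. The noncoding RNA gene C30C11.14 started closer to this summit, at 58 bp.

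The other 2 constitutive genes encode mitochondrial chaperones and were not in the IDR list. The mitochondrial HSP70 gene hsp-6 had a pooled peak of signal 31.5, below the list's median of 32.6, at rank 14262. This summit lay 650 bp downstream of the 5′ end. The strongest replicate 1 summit near the gene, at rank 18767, lay 584 bp downstream. That of replicate 2, at rank 5111, lay 421 bp upstream and so was a different peak. The mitochondrial HSP90 gene hsp-75 (a TRAP1 homologue) had no summit in any of the 4 lists. The constitutive group thus spanned ranks from 169 to no peak.

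**Figure D2:**
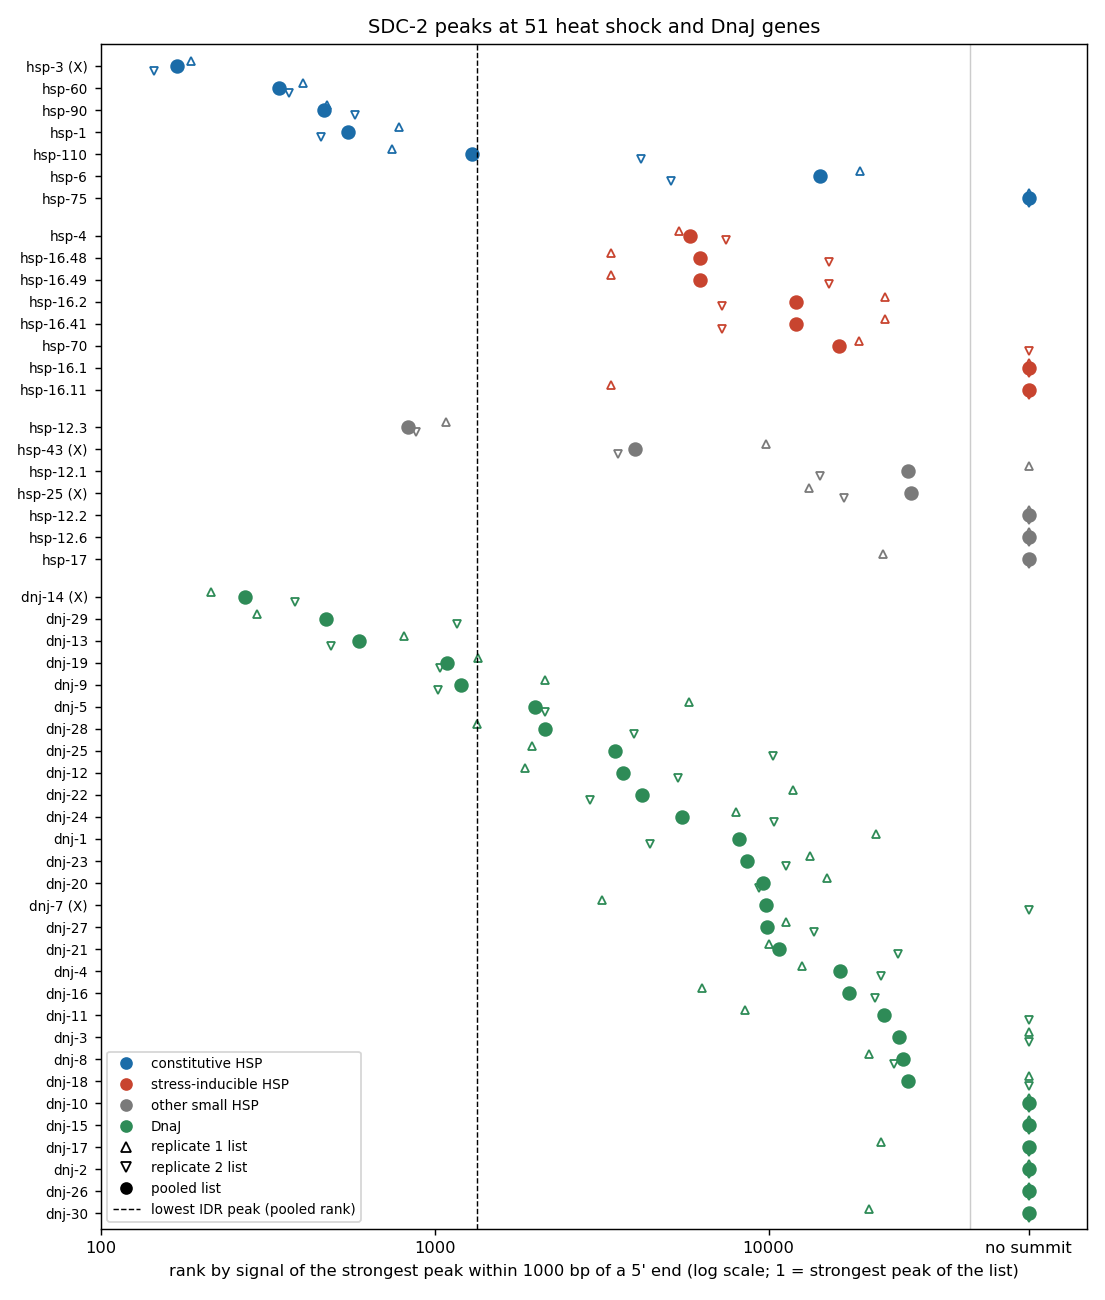
Rank by signal (log scale, 1 is the strongest peak of a list) of the strongest peak within 1000 bp of a 5′ end at each of the 51 genes, in the pooled list (filled circles), replicate 1 (upward triangles) and replicate 2 (downward triangles), coloured by group; the dashed line is the lowest pooled rank of an IDR peak, and genes with no summit in a list are at the right. The 5 constitutive genes in the IDR list run from rank 169 to 1296, and the 6 stress-inducible genes with a pooled peak from 5812 to 16221.

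The stress-inducible genes had peaks below the IDR list or none. A pooled summit lay at 6 of the 8 (75%, with shared promoters), beside 46.1% of all protein-coding genes. The ER-stress-inducible BiP gene hsp-4 had the highest pooled signal of its group, 46.4 at rank 5812, 610 bp upstream. The strongest summit near the gene in replicate 2 also lay 610 bp upstream, with signal 24.2 (rank 7461). That of replicate 1 lay 324 bp upstream of the nearest 5′ end, with signal 25.3 (rank 5373), and may be another peak. The heat-inducible HSP70 gene hsp-70 had a pooled signal of 29.7 at rank 16221, with its summit 948 bp downstream of the 5′ end, 15.3 (rank 18665) in replicate 1 and no summit in replicate 2. The BiP genes hsp-3 and hsp-4 differed in pooled rank, 169 against 5812, and hsp-3 is on X whereas hsp-4 is on II.

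The hsp-16 genes encode heat-inducible small HSPs and lie as divergent pairs on V, so they share promoters and peaks and do not count as separate observations. The divergent pair hsp-16.2 and hsp-16.41 shared a pooled summit of signal 34.1 (rank 12089), 133 bp upstream of hsp-16.2 and 88 bp upstream of hsp-16.41. Its replicate ranks were 22268, with signal 13.95, in replicate 1 and 7246, with signal 24.4, in replicate 2. Of the replicate summits, that of replicate 2 lay between the 5′ ends and that of replicate 1 did not.

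At the other hsp-16 locus, hsp-16.48 and hsp-16.49 shared a pooled summit of signal 45.1 (rank 6241) that lay 943 bp downstream of the start of hsp-16.48 and 692 bp downstream of that of hsp-16.49, between the 3′ ends of these convergent genes. It had rank 3382 (signal 29.9) in replicate 1 and 15195 (signal 17.9) in replicate 2. The same replicate 1 summit lay 996 bp upstream of hsp-16.11, the only summit near that gene, and hsp-16.1 had none in any list. The divergent promoters of this locus, chrV:9087783-9088130 (348 bp) and chrV:9089767-9090076 (310 bp), held 0 summits in the pooled and replicate lists. They were 100% identical over the 310 aligned bases. Of the 31-base words within 1000 bp of the outermost 5′ end, 80.2 to 94.4% occurred more than once in the genome at the 4 genes of this locus. At 43 of the 51 genes the share was under 5%, and no other member passed 50%. How the authors treated reads that align to several places is not given in the sources used here, and the part of these repeats in the low counts was not tested.

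The groups were also followed down the pooled list, which held 26639 nuclear peaks. Its 1343 strongest peaks gave the same counts as the IDR list and are not separate support. Among the 500 strongest pooled peaks, 3 of the 7 constitutive genes and 0 of the 8 stress-inducible genes had a summit. Of all protein-coding genes, 1.61% did. Among the 4000 strongest, the counts were 5 and 0, with 11.4% of all genes. At 8000 peaks 3 stress-inducible genes had a summit, and at 16000 5 did, with 19.4 and 32.5% of all genes. In the whole list 6 of 7 constitutive and 6 of 8 stress-inducible genes had one, the latter with 4 distinct summits as their strongest, since the hsp-16 genes share them. There, 39 of the 51 chaperone genes (76.5%) had a summit, against 46.1% of all protein-coding genes.

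**Figure D3:**
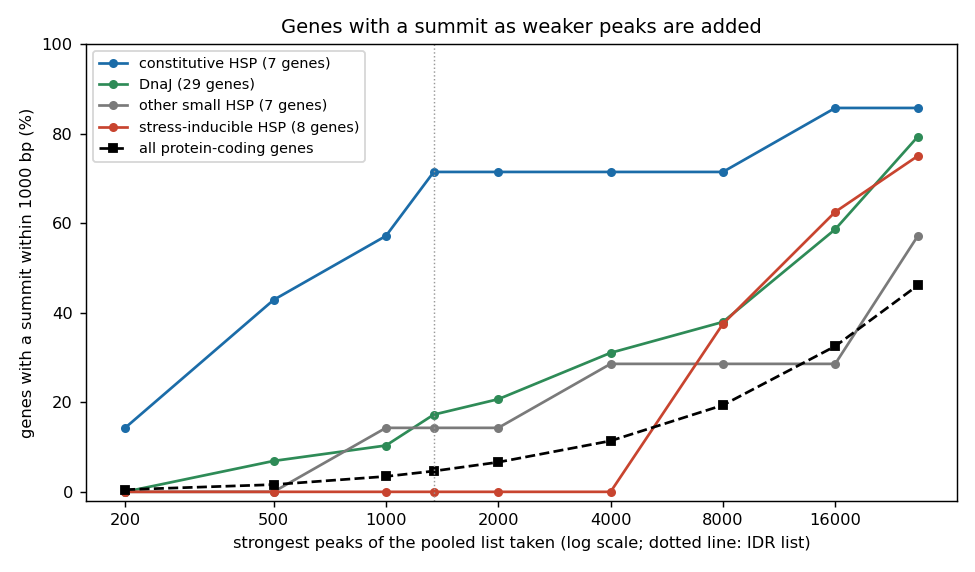
Share of genes in each group with a summit within 1000 bp, in percent, as more of the pooled list is taken in order of signal (log scale); the dotted line marks the size of the IDR list, and the black dashed line is all protein-coding genes. The constitutive group reaches 71.4% at the size of the IDR list, where the stress-inducible group is at 0, and both have 6 genes with a summit in the whole list.

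Each replicate alone gave 10 chaperone genes when as many of its strongest peaks were taken as there are IDR peaks. In replicate 1 these 10 held 5 constitutive and 0 stress-inducible genes, beside 4.58% of all protein-coding genes, and in replicate 2 they held 4 and 0, beside 4.49%. There were 8 genes in both sets (dnj-13, dnj-14, dnj-29, hsp-1, hsp-3, hsp-12.3, hsp-60 and hsp-90) and 12 in either, whereas 3.08% of all genes were in both. The replicate summits lay 0 to 72 bp from the IDR summit at all 11 genes. Replicate ranks differed most at hsp-110, as given above, and dnj-9 and dnj-19 ranked higher in replicate 2 than in replicate 1.

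Among the DnaJ genes, dnj-14 on X had the highest signal, 183.8 (chrX:4711775-4712224, rank 270), with 101.9 (rank 214) in replicate 1 and 81.7 (rank 383) in replicate 2. It encodes a homologue of cysteine string protein, a DnaJ protein of synaptic vesicles. Its summit lay 252 bp upstream of dnj-14, 279 bp from glit-1, a neuroligin-like gene, and 41 bp from the noncoding RNA gene DL2.1.

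The ER gene dnj-29, whose homologue SEC63 works at the translocon, had a signal of 134.3 (rank 473) with its summit 132 bp upstream, and 84.1 (rank 293) and 48.3 (rank 1170) in replicates 1 and 2. The cytosolic gene dnj-13, homologous to human DNAJB1, had 118.3 (chrII:11545266-11545715, rank 593) with its summit 210 bp upstream, in an intron of dhgd-1, and 50.7 (rank 808) and 70.8 (rank 489) in the replicates. Both were among the strongest peaks of each replicate. The noncoding RNA gene F54D5.22 started 27 bp from the dnj-13 summit, and ndua-2 started 396 bp from the dnj-29 summit.

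The cytosolic gene dnj-19, homologous to human DNAJA2, had 91.0 (chrV:5505005-5505454, rank 1088), with 41.2 (rank 1350) in replicate 1 and 50.9 (rank 1035) in replicate 2. Its summit lay 373 bp upstream, and the start of the nuclear hormone receptor gene nhr-47 was 23 bp away. For dnj-9 the signal was 87.0 (chrII:4851639-4852088, rank 1202), 192 bp upstream, with 35.0 (rank 2143) in replicate 1 and 51.1 (rank 1027) in replicate 2, and no other annotated 5′ end lay within 1000 bp.

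The small HSP gene hsp-12.3 had a signal of 101.4 (chrIV:9444393-9444842, rank 834), with 44.7 (rank 1082) in replicate 1 and 54.5 (rank 880) in replicate 2. Its summit was the one member summit downstream of the nearest 5′ end of its gene, at 889 bp. This summit lay past the 3′ end of this short gene and 24 bp from the snRNA gene F38E11.11. It was also the summit closest to the limit of 1000 bp from inside. The closest outside were 2444 bp from dnj-16 (signal 83.6), 2449 bp from dnj-12 (124.6) and 2610 bp from hsp-12.6, the last being the hsp-12.3 peak itself. A limit of 2000 bp therefore gave the same 11 genes, while the share of all genes went up to 6.87%.

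The 28 chaperone genes in the pooled list but not the IDR list had pooled signals from 22.5 to 69.8, with a median of 37.3, and ranks from 1991 to 26624. The strongest was dnj-5, with 69.8 at rank 1991, 792 bp upstream, and replicate ranks of 5778 and 2138. The gene dnj-28 had 67.6 at rank 2141, 138 bp upstream. Its strongest replicate 1 summit, 99 bp upstream, was at rank 1342, just inside the size of the IDR list. The strongest in replicate 2 lay 331 bp upstream, at rank 3966, and may be another peak. The genes dnj-25 and dnj-12 followed, with 56.6 at rank 3457 and 55.3 at rank 3662, and summits 91 and 90 bp upstream. Neither replicate placed dnj-25 or dnj-12 among its 1343 strongest peaks. There was no summit in any list at 8 genes: hsp-75, hsp-16.1, hsp-12.2, hsp-12.6, dnj-2, dnj-10, dnj-15 and dnj-26. Over all protein-coding genes, 7991 of 19973 had none.

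By compartment, 5 of 13 genes listed as cytosolic had an IDR summit (38.5%, interval 13.9 to 68.4%), 2 of 6 of the ER (hsp-3 and dnj-29, 33.3%, interval 4.33 to 77.7%) and 1 of 5 of the mitochondria (hsp-60, 20%, interval 0.505 to 71.6%). Of the 27 genes placed in none of these, 3 had one. Among all protein-coding genes the share was 4.64%. With nearest-gene assignment 2 cytosolic, 2 ER and 0 mitochondrial genes kept an IDR summit. The compartment intervals overlap throughout, and the cytosolic 5 were hsp-1, hsp-90, hsp-110, dnj-13 and dnj-19. The cytosolic list also holds the 6 hsp-16 genes and hsp-70, none of which had an IDR summit.

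On X, 2 of 5 chaperone genes had an IDR summit, hsp-3 and dnj-14 (40.0%, interval 5.27 to 85.3%), beside 11.2% of all X genes. All 5 had a pooled summit, beside 56.1% of all X genes. On the autosomes 9 of 46 had an IDR summit (19.6%, interval 9.36 to 33.9%), against 3.60% of all autosomal genes. The interval for X contains the share of all X genes, and that for the autosomes lies above the share of all autosomal genes. With nearest-gene assignment the latter no longer held: 4 of 46 autosomal chaperone genes had an IDR summit (8.70%, interval 2.42 to 20.8%), beside 2.68% of all autosomal genes. These intervals take genes as separate observations, which the hsp-16 genes are not. They describe the counts and are not a test, since members and lists were chosen with earlier results of these data known. The X pair held the highest signals of the 11, 246.1 and 183.8. The median over the 9 autosomal genes was 118.3, beside 105.6 over the 621 autosomal genes with an IDR summit and 130.3 over the 305 on X. The other X genes were weaker: hsp-43, a small HSP gene, had a pooled signal of 53.5 at rank 3980, dnj-7, whose homologue is the ER protein P58IPK, had 37.4 at rank 9831 with no summit in replicate 2, and hsp-25 had 22.5 at rank 26624. The nearest IDR summit to dnj-7 was 12777 bp upstream and had a signal of 5346, rank 20.

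**Figure D4:**
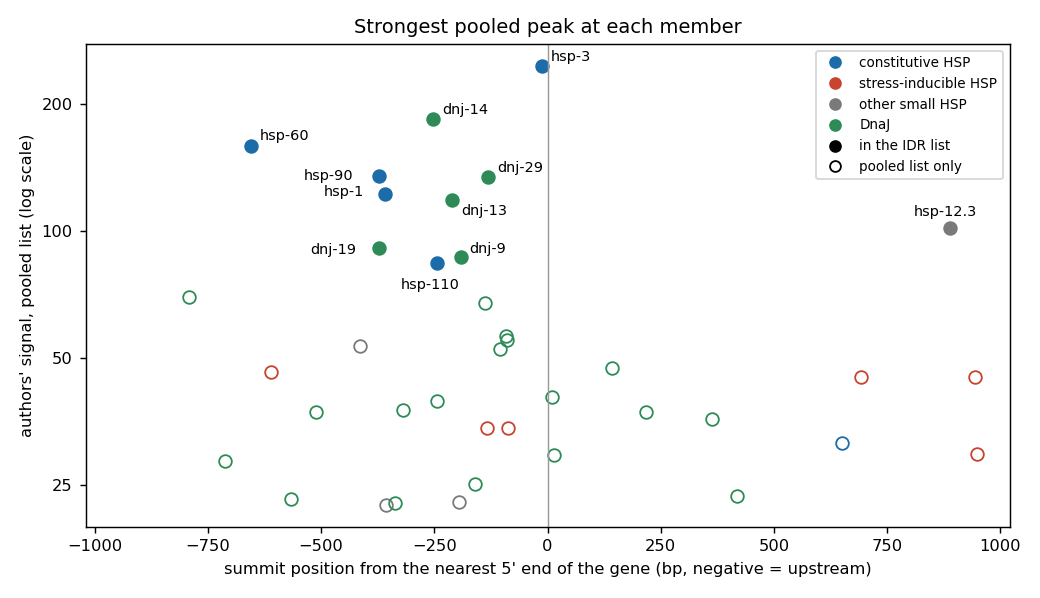
Signal of the strongest pooled peak (log scale) against its summit's position from the nearest 5′ end of the gene in bp (negative is upstream), for each chaperone gene with a pooled summit, coloured by group; filled points are in the IDR list and open points in the pooled list only. Of the 11 filled points 10 are upstream, between 655 and 12 bp from the start, and hsp-12.3 is 889 bp downstream.

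The summits sat mostly just upstream of the starts, as they did at other genes. Of the 11, 10 were upstream of the nearest 5′ end of the gene (90.9%), beside 86.0% of the 926 protein-coding genes with an IDR summit. For hsp-90 that was the inner end, and its summit lay 871 bp downstream of the outer one. Within 500 bp lay 9 of the 11 (81.8%), beside 70.6%. The median offset was -244 bp (negative is upstream), beside -240 bp over all such genes, and the median distance was 252 bp, beside 296.5 bp. The median signal was 122.6, with quartiles of 96.2 and 147.2, against 110.1 with quartiles of 93.7 and 148.5 over all such genes. The median signal of the chaperone genes lay inside the quartiles of all genes with an IDR summit.

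Many of these summits had other starts nearby. The nearest protein-coding 5′ end was the chaperone's own for 6 of the 11 (dnj-9, dnj-13, dnj-14, dnj-29, hsp-1 and hsp-3). With noncoding genes counted, it was its own for 3, and for 5 of the 11 the nearest 5′ end of any gene was that of a noncoding RNA, beside 27.3% of the 781 IDR summits near a protein-coding start. Of the 11 summits, 9 were intergenic and 2 in introns.

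Matches to the pair of heat shock units lay within 100 bp of 6 of the 11 summits (54.5%): hsp-60, hsp-90, hsp-110, hsp-1, dnj-13 and dnj-19. Among all 1343 IDR windows of this length 10.8% held one, and among the 781 near a protein-coding start 12.9%. A longer match of 3 alternating units was at 2 of the 11, hsp-60 and hsp-110, and in 0.670% of all IDR windows. These are matches of letters and are not shown to be bound. Chaperone promoters as a whole also held them often, as given below, and whether the letters go with the summits was not tested.

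The promoters of the stress-inducible genes held more of these letters and no IDR summit. In the 300 bp upstream of the outermost 5′ end, all 8 held a pair and 7 held 3 alternating units, every one but hsp-4, which is known to be induced by ER stress. Among constitutive promoters 3 of 7 held a pair and 3 of 7 the longer match, in both cases hsp-1, hsp-90 and hsp-110. Over the promoters of all 51 chaperone genes, 45.1% held a pair and 21.6% the longer match. Over all protein-coding promoters of this length the shares were 32.0 and 1.92%. With each divergent hsp-16 pair counted once, 5 of 5 stress-inducible promoters held a pair and 4 of 5 the longer match. The word AGACGCAG was in the 3 promoters that the hsp-16 genes share, 2 of them identical over their aligned bases, and in 3.77% of all promoters. It was at 1 of the 11 summits and in 12.2% of all IDR windows. The word GAGAGAGA was at 2 of the 11, hsp-1 and dnj-13, and in 11.99% of all IDR windows. Windows at the 11 summits had a median GC content of 46.3%, from 35.8 to 62.7% with hsp-3 the highest, against 49.3% in all IDR windows.

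**Figure D5:**
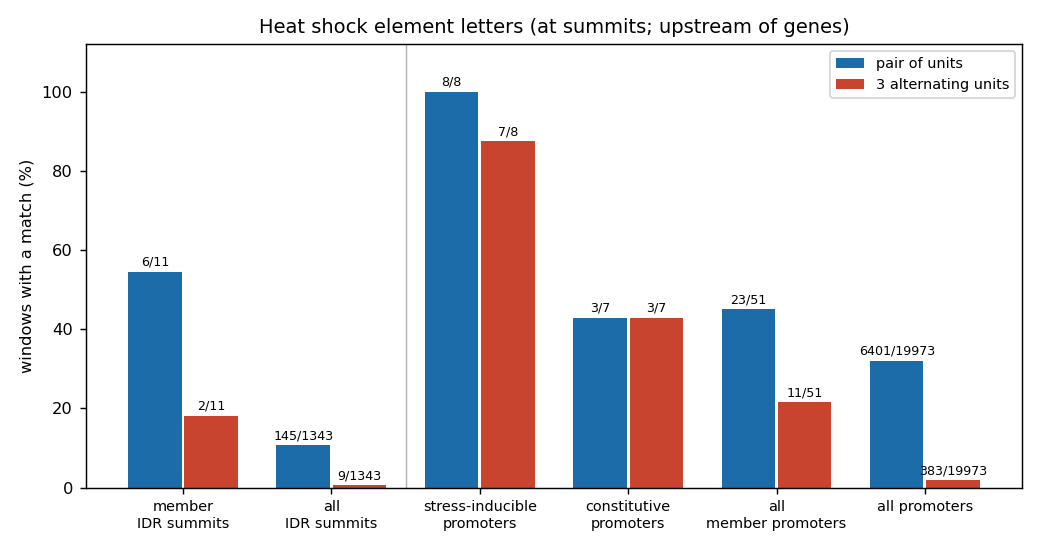
Share of windows, in percent, that hold a pair of heat shock units (blue) or 3 alternating units (red), in 201 bp at IDR summits (left of the grey line) and in 300 bp upstream of genes (right), with windows holding a match of all windows above each bar. A pair is at 6 of the 11 chaperone summits and in 10.8% of all IDR windows, and in all 8 stress-inducible promoters.

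Other chaperones and regulators, listed as 28 genes not named hsp- or dnj-, had an IDR summit at 4 (14.3%, interval 4.03 to 32.7%). A pooled summit lay at 22 (78.6%), and none of these genes is on X. Among all autosomal protein-coding genes the shares were 3.60% (IDR) and 44.5% (pooled). The 51 hsp and dnj genes had 21.6 and 76.5%, so the pooled shares were near each other and the IDR intervals overlapped. The 4 other chaperone genes with an IDR summit were bag-1, an HSP70 cochaperone (signal 147.1, 170 bp upstream), ahsa-1, an activator of HSP90 (113.2, 228 bp upstream), enpl-1, the HSP90 of the ER (113.0, 7 bp downstream), and pfd-5, a prefoldin subunit (92.1, 157 bp upstream). None of the 8 cct genes, which encode the cytosolic chaperonin, was among them, and hsf-1, the gene of the heat shock factor, had no summit in any list.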

How the data were processed

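The data were ChIP-seq peak lists for SDC-2 with a GFP-FLAG tag, from 2 biological replicates. Per the deposited README texts, peaks were called on each replicate and on the pooled alignments against a control shared by both, and the IDR list was derived from those lists. The sources used here name no aligner, peak caller or IDR threshold. The signal used is a value per peak that the authors deposited, with no read counts, so depth is unknown, and intervals (Clopper-Pearson) cover counting error only.

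The ce11 lists were used, without mitochondrial peaks. The ce10 lists and the p-value and q-value columns were not used. Peaks were assigned to Ensembl 5′ ends by summit, and names that Ensembl gives to 2 hsp-16 genes each were settled by RefSeq symbols at the same coordinates. Repeated 31-base words were counted over the genome. Python 3.11.15, pandas 2.3.3, numpy 2.4.6, SciPy 1.17.1, Biopython 1.88 and matplotlib 3.10.9 were used, and the scripts were checked on simulated data.

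Named genes were those with an IDR summit, all constitutive and stress-inducible genes, the 4 strongest others, those nearest the distance limit and other chaperones with an IDR summit. The other X genes, the genes with no summit, cct genes and hsf-1 were named after their values were seen. Members and lists were chosen with earlier results of these data known, so no test was made on them.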

Additional observations from a re-analysis of the deposited data

How the results depend on the processing

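Across 139 alternative values for distance, assignment and depth of the list, 116 stayed within the limits set (1.5 times for counts) and 23 moved. The stress-inducible count was 0 under every alternative run. Settings that only narrow the main one could not raise it, though they count among the 116. These were 500 bp, outermost 5′ ends, upstream summits, nearest gene, the strongest peaks and each divergent hsp-16 pair counted once. The last was chosen after seeing the data. The count could have risen only with 2000 bp, matching by peak interval, the longer list or 1 replicate left out. A 500 bp limit left 0 other small HSP and 0 mitochondrial genes, and upstream summits alone left 0 other small HSP genes, with a median signal of 128.4. Nearest-gene assignment left 6 members, 4 autosomal, 2 constitutive, 2 cytosolic, 0 other small HSP and 0 mitochondrial genes, with a median distance of 201 bp and a median signal of 128.4. The IDR list cut to its 671 strongest peaks left 7 members, 5 autosomal, 3 DnaJ, 3 cytosolic and 0 other small HSP genes, 2.23% of all genes and a median signal of 135.0. A list 2 times as long from the pooled peaks gave 7 other chaperone genes, 8.39% of all genes and a median signal of 118.3, and added dnj-5 and dnj-28. With 1 replicate left out, the median distance ran from 283.5 to 337 bp and the count of members was 10 either way: without replicate 1 hsp-110 was lost, and without replicate 2 dnj-9 and dnj-19 were lost and dnj-28 gained. The causes were not tested. No paired analysis was possible because there was 1 group. Unknown depth and small groups limit every share.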
